A study of Solanum lycopersicum with 27 samples.

Results

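A set of tomato genes had lower transcript levels after 3 h of chilling than before it and than in concurrent controls, in shoots and in roots alike, and these cold-repressed genes of both organs are described here. Seedlings of the tomato cultivar M82 were grown for 18 days, at the end in hydroponic Hoagland solution, and at ZT2.5 (2.5 h after lights on) they either stayed at 24°C or were moved to a cold room at 4°C, both in the light. Shoots were taken before the treatment (T0), after 30 min and after 3 h, and roots at T0 and after 3 h. All libraries come from this single cultivar with no transgene or mutation, and each is a pool of 4 seedlings. RNA-seq gave 18 shoot libraries, with 6 at T0 and 3 in each treated group, and 9 root libraries, with 3 in each group. T0 is thus earlier in the day than every treated library, and the 24°C libraries are the control of the same hour.

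A gene was counted as cold-repressed in both organs when, in each organ, its T0 mean was at least 50, its 3 h mean at 4°C was at most 0.55 of the T0 mean, and this 4°C mean was also at most 0.5 of the 24°C mean at 3 h. Values are TMM-normalised read counts, in which every library of an organ is brought to nearly the same total. In shoots the rule used T0 replicates 1–3, which the study places in 1 batch with the 3 h libraries. Of 18970 nuclear genes listed in both tables, 15363 reached the T0 minimum in both organs, 524 met the whole rule in shoots, 302 met it in roots, and 123 met it in both. All 123 passed the filter on low values that the tests use. Because measured values chose these genes, their 3 h levels are a description and are given without a test. The shoot libraries at 30 min and T0 replicates 4–6 took no part in the choice, and p-values are given only for comparisons among them. These p-values come from a fit that takes its spread from all 18 shoot libraries. Where that fit sets T0 replicates 4–6 against 1–3, the counts are a description.

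Tomato is a plant of warm climates that is injured by chilling, and in the cold plants restrain growth, in which cell division, cell wall loosening and hormones such as brassinosteroids and abscisic acid take part. A transcript declines when it is made more slowly or broken down faster, and a steady level in the cold with a rise at 24°C gives the same difference between temperatures. The pre-treatment control separates these courses, because a cold-repressed gene has to lie below T0 as well as below the concurrent 24°C control.

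The share of each library taken by the 123 genes together gives the size of the pattern. In shoots it was 0.164%, 0.172% and 0.163% of the library total in T0 replicates 1–3, and 0.0487%, 0.0510% and 0.0550% after 3 h at 4°C. At 24°C it was 0.178%, 0.181% and 0.180%. In roots the share was 0.169%, 0.168% and 0.153% at T0, 0.0645%, 0.0640% and 0.0729% at 4°C, and 0.246%, 0.249% and 0.268% at 24°C. The cold libraries lay below all others of their organ, without overlap, and the root share at 24°C was above T0 in every library. In bulk tissue, fewer cells that use a gene and less RNA per cell cannot be told apart.

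**Figure D1:**
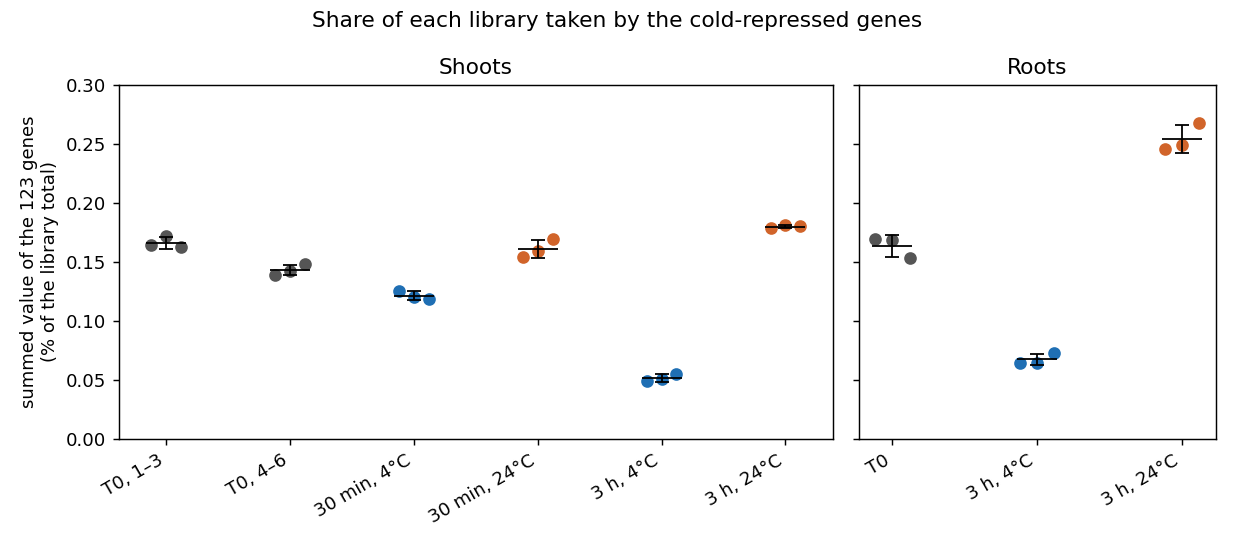
Summed value of the 123 cold-repressed genes as a percentage of the library total (vertical axis, from 0) in each library of shoots (left) and roots (right). Points are libraries, and the horizontal line and bars are the mean and SD of 3 libraries. The 3 h libraries at 4°C lie lowest in both organs, at 0.0487% to 0.0550% in shoots and 0.0640% to 0.0729% in roots, and the 30 min libraries at 4°C lie at 0.118% to 0.126%.

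For the single genes, the median 3 h level at 4°C was 0.293 of T0 in shoots and 0.437 of T0 in roots. Against 24°C the median ratio was 0.301 in shoots (range 0.0395 to 0.495) and 0.318 in roots (range 0.0290 to 0.495). Over the 15363 genes with the T0 minimum, the same 4°C/24°C ratio had a median of 0.822 in shoots and 0.933 in roots. In shoots 40 of the 123 genes were at 0.25 of the 24°C level or less and in roots 43 were, with 19 that low in both. The levels were moderate: the median T0 mean was 155 in shoots and 302 in roots, against 418 and 888 over the genes with the T0 minimum. All 3 libraries at 4°C lay below all 3 at 24°C for 122 of the 123 in shoots (52.9% of all 18970 genes) and for all 123 in roots (42% of all genes), which the rule itself largely fixes. The exception in shoots, named after its values were seen, was Solyc07g007860, at 55.2, 22.7 and 31.3 in 4°C against 54.5, 86.2 and 83.1 in 24°C. Against T0, all 3 cold libraries lay below all T0 libraries for 123 genes in shoots (replicates 1–3, 36.8% of all genes) and for 115 in roots (18.2% of all genes).

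Some libraries stood apart. In root T0 replicate 3, 43 of the 123 genes (35%) differed by more than 1.5-fold from the mean of the other T0 libraries, against 10.3% of the genes with the T0 minimum. In each of the other root libraries at most 23 of the 123 did. Without that library 109 genes met the rule, 104 of them among the 123. The organellar genes are the 167 shoot IDs outside the nuclear series. They took 6.75% to 6.80% of the shoot values after 3 h at 4°C and 0.269% to 0.343% at 24°C. The nuclear values of the cold shoot libraries thus sum to less. In roots 81 such IDs took 0.168% to 0.185% of the values at 4°C and 0.150% to 0.159% at 24°C. With libraries rescaled by median ratios over nuclear genes, the median 4°C/24°C difference at 3 h of the genes with the T0 minimum moved from -0.28 to -0.020 on the log2 scale in shoots and from -0.099 to 0.013 in roots. That of the 123 genes moved from -1.69 to -1.44 in shoots and from -1.65 to -1.54 in roots. On rescaled values 84 genes met the rule, 83 of them among the 123. The part of the organellar share, and of root T0 replicate 3, in the levels described here was not tested beyond these values. The labelled organs matched their markers: RBCS1, RBCS2 and RBCS3, small subunits of Rubisco, each took 0.470% to 1.21% of the shoot values and at most 0.00413% of the root values. The iron uptake genes FER and IRT1 were listed in the root table only. The phosphate transporter gene LePT1 took 0.0144% to 0.0793% of the root values and at most 0.00711% of the shoot values.

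Names were taken from the tables of the study, where most are those of the closest Arabidopsis gene, and 19 of the 123 have one or are listed there as transcription factors. Roles given below are those known in Arabidopsis. The study's list of transcription factors was itself drawn from genes that differed in these samples, so the presence of 14 of the 123 in it (11.4%, against 1.93% of all 18970 genes) is a description. Of its 25 transcription factors that responded alike in both organs, 7 are among the 123: WOX4, a TCP family gene, GATA17, NF-YB3, HSFB4, NAC083 and a CCCH zinc finger gene.

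The study also measured some of the transcription factors common to shoots and roots by qRT-PCR, and those values are not used here. For WOX4 and the TCP gene it designed qPCR primers, each of 20 bases, which mark the transcripts meant here. They are shown 5′ to 3′ as deposited, forward and then reverse, with no base singled out by capitals. WOX4 (Solyc04g078650) is on chromosome 4 and the TCP gene (Solyc08g080150) on chromosome 8.
WOX4 forward: tgtaggggatggacatttga
WOX4 reverse: ctggatgcaatgggaagagt
TCP forward: ctaccggaaccggaactgta
TCP reverse: gtggatggttctcgtcgatt

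WOX4 encodes a WUSCHEL-related homeobox protein that keeps the cells of the vascular cambium dividing. In shoots it was at 513, 456 and 393 at T0 (replicates 1–3), at 81.5, 81.7 and 78.2 after 3 h at 4°C, and at 544, 534 and 515 at 24°C. In roots it was at 277, 442 and 646 at T0, at 150, 149 and 193 at 4°C, and at 1020, 944 and 878 at 24°C. The cold libraries lay below all others in both organs, and the spread was widest in roots at T0. Its 4°C mean was 0.152 of the 24°C mean in shoots and 0.173 in roots, a log2 difference of -2.71 (standard error 0.12) and -2.53 (standard error 0.26). The 24°C level was 2.08 times T0 in roots and 1.17 times T0 in shoots.

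The TCP gene belongs to a family that controls cell proliferation in growing organs. After 3 h at 4°C it was at 104, 104 and 104 in shoots, and at T0 it had been at 155, 186 and 250. At 24°C it was at 316, 299 and 248. Its shoot level in the cold was 0.528 of T0 and so lies close to the limit of the rule, while against 24°C it was 0.362 in shoots and 0.297 in roots.

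NAC083 (Solyc03g097650), also called VNI2, encodes a NAC protein that restrains the making of xylem vessels and takes part in leaf ageing. In shoots it was at 72.7, 78.4 and 70.6 at T0, at 14.1, 10.02 and 10.9 at 4°C, and at 81.1, 69.3 and 72.1 at 24°C, where it kept its T0 level. In roots it was at 78.5, 71.3 and 186 at T0, at 33.4, 44.4 and 69.0 at 4°C, and at 606, 540 and 497 at 24°C. The root 4°C libraries lay below every T0 library, but replicate 3 at 69.0 came close to T0 replicate 2 at 71.3, and the larger difference in roots, 0.0894 of the 24°C mean, stands beside a 24°C level 4.89 times that of T0. HSFB4 (Solyc04g078770), also called SCHIZORIZA, belongs to the heat stress factor family and sets cell identity in the root tip. It was at 154, 181 and 158 at T0 and 35.8, 32.9 and 46.4 at 4°C in shoots, and at 277, 272 and 406 at T0 and 142, 165 and 143 at 4°C in roots. In both organs the groups did not overlap, and against 24°C its mean was 0.290 in shoots and 0.380 in roots.

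GATA17 (Solyc01g100220) is a zinc finger gene of the GATA family. It was at 62.1, 49.8 and 61.7 in shoots at T0 and at 8.77, 7.91 and 5.06 after 3 h at 4°C, 0.125 of T0. This was the lowest shoot ratio to T0 among the 19 named genes, whereas in roots the ratio was 0.436, with values of 85.6, 68.7 and 48.4 at 4°C. GATA5 (Solyc02g084590), of the same family, was at 0.437 of T0 in shoots and stood at 0.532 in roots, where the 4°C libraries were at 96.2, 140 and 107. NF-YB3 (Solyc12g006120) encodes a subunit of the CCAAT-binding nuclear factor Y, which promotes flowering in long days. Its shoot values were 262, 280 and 178 at T0, 60.1, 50.1 and 49.3 at 4°C, and 369, 359 and 274 at 24°C. In roots they were 326, 285 and 241 at T0, 93.6, 74.0 and 108 at 4°C, and 364, 402 and 338 at 24°C. It therefore had nearly the same course in both organs, with 4°C means of 0.222 and 0.324 of T0. The CCCH zinc finger gene (Solyc12g008660) was at 107, 122 and 109 in shoots at T0 and at 19.2, 19.7 and 26.8 at 4°C, against 184, 137 and 161 at 24°C, and in roots its 4°C mean was 0.296 of the 24°C mean.

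**Figure D2:**
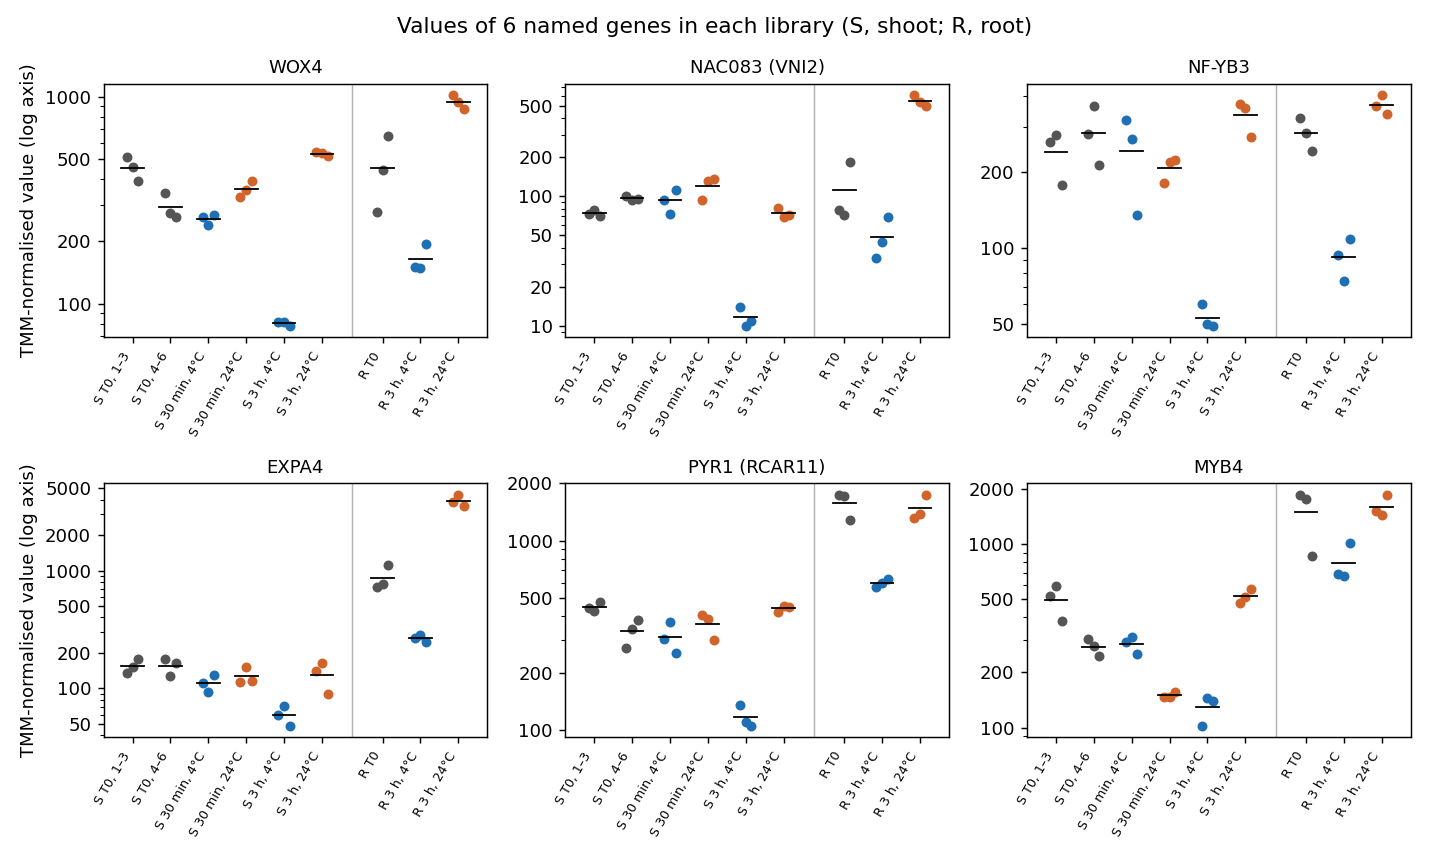
TMM-normalised values (vertical, logarithmic axis) of WOX4, NAC083, NF-YB3, EXPA4, PYR1 and MYB4 in every library, shoots (S) left of the grey line and roots (R) right of it. Points are libraries, black lines are means of 3, grey is T0, blue 4°C and orange 24°C. WOX4 at 3 h lies at 78.2 to 81.7 in cold shoots and at 149 to 193 in cold roots, and MYB4 at 30 min lies higher at 4°C (253 to 310) than at 24°C (147 to 155).

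GT2 (Solyc04g071360), a trihelix factor first known for binding light-responsive promoters, had the highest T0 level of the named genes in shoots. It was at 1710, 1727 and 2413 at T0, at 901, 894 and 1086 after 3 h at 4°C and at 2324, 2233 and 2224 at 24°C in shoots. Its ratios to T0, 0.492 in shoots and 0.546 in roots, were among the shallowest of the named genes. MYB4 (Solyc06g065100) encodes a repressor of phenylpropanoid genes. It was at 521, 591 and 381 in shoots at T0 and at 103, 145 and 140 at 4°C. In roots it was at 1851, 1764 and 862 at T0 and at 690, 667 and 1019 at 4°C, so that these groups overlapped through T0 replicate 3. MYB43 (Solyc04g014470), of the R2R3-MYB family that acts on lignin genes, was the only named gene whose shoot level at 24°C was also well below T0. It was at 53.7, 73.0 and 31.6 at T0, at 6.45, 5.63 and 15.5 at 4°C and at 21.6, 16.7 and 17.4 at 24°C. Its 4°C/24°C ratio of 0.495 is the highest in shoots among the 123, and the highest in roots, 0.495 as well, is that of MYB4.

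The other listed transcription factors were a MYB gene of the SHAQKYF class (Solyc03g119740), a GRAS family gene (Solyc07g043330) and Solyc11g066460, listed as an unknown protein. The MYB gene was at 595, 669 and 703 in shoots at T0 and at 177, 162 and 223 at 4°C, and in roots at 100.2, 129 and 68.4 and at 68.1, 52.4 and 39.4. The GRAS gene had 4°C means of 0.402 of T0 in shoots and 0.533 in roots. Solyc11g066460 had 0.392 and 0.436, with root values of 598, 618 and 686 at T0 and 297, 254 and 278 at 4°C.

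The named genes that are not transcription factors serve the cell wall, hormones and organelles. EXPA4 (Solyc06g051800) encodes an expansin, a protein that loosens the cell wall as cells enlarge. In roots it was at 728, 777 and 1111 at T0, at 269, 287 and 246 at 4°C, and at 3786, 4384 and 3513 at 24°C. Its cold level was 0.306 of T0 and 0.0686 of the 24°C level, the lowest root ratio of any named gene. In shoots it was at 136, 152 and 177 at T0, at 59.4, 71.0 and 48.4 at 4°C, and at 139, 164 and 88.8 at 24°C, a ratio of 0.456. PYR1 (Solyc08g076960), a receptor of the hormone abscisic acid, kept its T0 level at 24°C in both organs, at 0.985 in shoots and 0.938 in roots. At 4°C it was at 136, 111 and 106 in shoots, from 441, 423 and 476 at T0. In roots it was at 571, 596 and 630, from 1730, 1709 and 1283.

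BRH1 (Solyc04g054370) encodes a RING finger protein named for its response to brassinosteroids, hormones of cell growth. It was at 217, 248 and 271 in cold shoots and at 547, 598 and 459 at T0, and in roots at 122, 135 and 282 at 4°C and 400.2, 445 and 211 at T0. The root groups overlapped, since the 4°C replicate 3 exceeded T0 replicate 3. BAG5 (Solyc06g072430), a co-chaperone of the BAG family, was at 54.2, 44.7 and 71.9 in cold shoots and at 349, 363 and 231 at T0. In roots its 4°C mean was 0.548 of T0, the highest such ratio among the named genes. PEX11A (Solyc04g080000), which acts in the division of peroxisomes, was at 50.1, 57.0 and 43.5 in cold shoots against 125, 132 and 106 at T0, and at 237, 221 and 218 in cold roots against 414, 458 and 476.

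Among genes without a name in the sources used here, Solyc12g009880 had the lowest shoot ratio to 24°C. It was at 9.71, 11.2 and 12.1 after 3 h at 4°C, at 239, 282 and 315 at 24°C and at 126, 114 and 143 at T0 (replicates 1–3). It was nearly as low in roots, at 60.2, 56.8 and 66.7 in 4°C against 819, 879 and 931 in 24°C. The lowest root ratio, 0.0290, was that of Solyc03g096780, at 15.1, 28.5 and 41.4 in 4°C and 1067, 978 and 884 in 24°C. In shoots the same gene had the ratio to T0 nearest the limit of the rule, 0.543, with 1396, 1386 and 1286 in 4°C and 2929, 3057 and 2234 in 24°C.

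The course at 24°C differed between the organs, as a description over the same 123 genes. In shoots 100 of the 123 stayed within 1.5-fold of T0 after 3 h at 24°C, 8 were at least 1.5-fold higher and 15 at least 1.5-fold lower, with a median ratio of 1.04. In roots 70 stayed within 1.5-fold, 49 were higher and 4 lower, with a median of 1.35. Of the genes with the T0 minimum, 14.2% were that much higher in roots at 24°C and 9.74% in shoots, and 13.4% were that much lower in roots and 11.2% in shoots. In 58 genes (47.2%, against 62.2% of the genes with the T0 minimum) the 24°C level stayed within 1.5-fold of T0 in both organs. A rise at 24°C within that bound can still add to the difference between temperatures. In cold roots GT2 had a log2 difference of -1.32 from 24°C and -0.84 from T0. EXPA4 and NAC083 lay beyond the bound in roots, with 24°C levels of 4.47 and 4.89 times T0. A gene with a higher level at 24°C meets the rule more easily, since the rule asks for a low 4°C/24°C ratio.

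**Figure D3:**
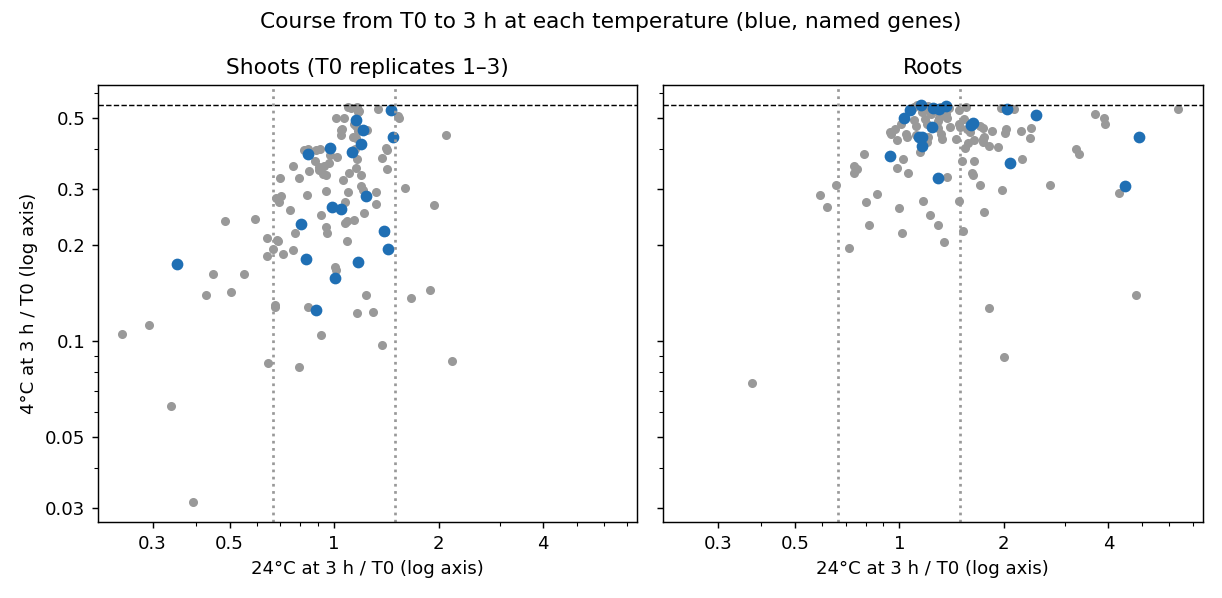
Ratio of the 3 h mean to the T0 mean at 24°C (horizontal) and at 4°C (vertical) for each of the 123 genes in shoots and roots, both axes logarithmic. Blue points are the 19 named genes, the dashed line is the 0.55 limit of the rule and the dotted lines mark 1.5-fold below and above T0. In shoots 100 genes lie between the dotted lines, and in roots 70 do while 49 lie to the right.

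The depth of the difference was not shared closely between the organs. The 4°C/24°C ratio was lower in roots for 60 genes and lower in shoots for 63. Across the 123 genes the log2 ratios of shoots and roots had a Pearson r of 0.24 and a Spearman rho of 0.21. This is a correlation over genes within a range that the rule cuts off, genes are not independent replicates, and it is given without a test. WOX4, at 0.152 and 0.173, lay near equality, GATA17 was lower in shoots (0.141 against 0.382) and EXPA4 lower in roots (0.0686 against 0.456). Shoots and roots were normalised apart, so these differences between organs were not tested.

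**Figure D4:**
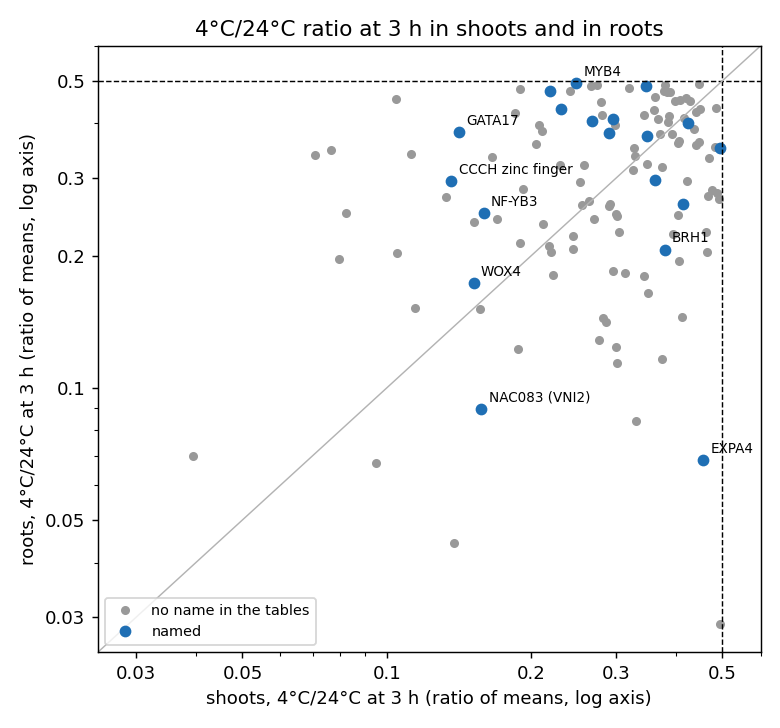
4°C/24°C ratio of 3 h means in shoots (horizontal) and roots (vertical) for the 123 genes, both axes logarithmic. Blue points are the 19 named genes, dashed lines are the limit of 0.5 and the grey line marks equal ratios. Genes lie on both sides of that line, 60 with the lower ratio in roots and 63 with the lower ratio in shoots, for example EXPA4 and GATA17.

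T0 replicates 4–6 give the pre-treatment level in shoots from libraries that took no part in the choice but were placed by the study in another batch, with the 30 min libraries. Against their mean, 102 of the 123 genes (82.9%) were at most 0.55 after 3 h at 4°C, as were 8.36% of the genes with the T0 minimum, and 121 (98.4%, against 50.3%) were below it. The cold libraries here are those the rule used, so the choice of genes in part fixes these counts. All 3 cold libraries lay below all 3 of these T0 libraries for 113 genes, against 28.6% of all genes. The T0 level itself differed between the sets. The summed share was 0.139%, 0.142% and 0.148% in replicates 4–6, lower than in replicates 1–3, and WOX4 was at 345, 276 and 262 there. By limma, 21 of the 123 were lower in replicates 4–6 than in 1–3 (17.1%, against 15.6% of all genes tested). Another 3 were higher (2.44%, against 7.95%). The rule favours genes that are high in replicates 1–3, so these counts cannot test a difference between the sets. They are read as a description, in which the share called lower was near that of all genes tested. With replicates 4–6 in place of 1–3 the rule found 101 genes, 97 of them among the 123.

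The 30 min shoot libraries asked whether the genes were already lower early in the cold. Most were slightly lower at 4°C than at 24°C, and few reached the threshold of the test. The summed share was 0.126%, 0.120% and 0.118% at 4°C and 0.154%, 0.159% and 0.169% at 24°C, without overlap. The median 4°C/24°C ratio was 0.801, against 0.954 over the genes with the T0 minimum, and 101 of the 123 ratios (82.1%) were below 1, as were 63.2% of the ratios of those genes. By limma at an adjusted p under 0.01, 10 of the 123 genes were lower at 4°C (8.13%, against 3.22% of all 20535 genes tested) and 2 were higher (1.63%, against 2.85%). At an unadjusted p under 0.05 these counts were 47 (against 16.4% of all genes tested) and 4 (against 8.33%). All 3 cold libraries lay below all 3 at 24°C for 45 genes (36.6%, against 17.4% of all genes) and above them for 4 (3.25%, against 7.33%). The median log2 difference was -0.33, against -0.067 over all genes tested. The organellar share was 4.14% to 6.35% at 4°C and 0.258% to 0.709% at 24°C in these libraries. After rescaling over nuclear genes the medians were -0.27 and -0.0075, so the members' median stayed below that of all genes tested. A lower level than at 24°C can come from a fall in the cold or from a rise at 24°C. Both courses occurred among the genes called lower, as the values against T0 replicates 4–6 given below show.

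**Figure D5:**
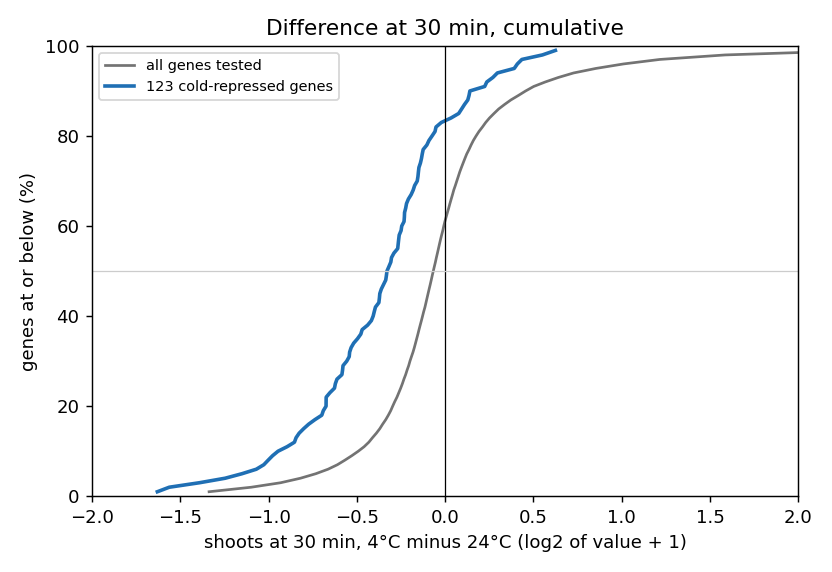
Cumulative share of genes (vertical, percent) by their limma difference between 4°C and 24°C in shoots at 30 min (horizontal, log2 of value + 1), for the 123 cold-repressed genes (blue) and all 20535 genes tested (grey). The blue curve lies to the left, with a median of -0.33 against -0.067.

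Genes that met the rule in a single organ are set beside these. The 357 genes that met the rule in shoots but not in roots, with the T0 minimum in both, had a median 4°C/24°C ratio of 0.803 at 30 min, and 42 of them were called lower (11.8%). For the 86 genes that met it in roots alone the median was 0.912, with 8 called lower (9.30%) and 5 higher (5.81%). These lists were chosen by the same kind of rule, and no difference between them was tested.

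GT2 had the lowest adjusted p of the named genes between the temperatures at 30 min. It was at 1126, 1134 and 1248 at 4°C and at 2163, 2062 and 2086 at 24°C, with no overlap, a log2 difference of -0.85 (standard error 0.12, limma adjusted p = 8.75e-05). The 3 h cold libraries, of another batch, were at 894 to 1086. Solyc11g066460 was at 158, 182 and 147 at 4°C and 231, 237 and 262 at 24°C, a difference of -0.58 (standard error 0.11, limma adjusted p = 0.0021). This limma call ended with only the 9 libraries of the 30 min batch (adjusted p = 0.033), with all T0 libraries as 1 group (0.16) and without 24°C replicate 3 (0.014), 4°C replicate 1 (0.011) or 4°C replicate 3 (0.012). Against T0 of the 30 min batch, Solyc11g066460 differed by -0.065 (standard error 0.11, limma adjusted p = 0.77) at 4°C. At 24°C it was higher than T0, by 0.52 (standard error 0.11, limma adjusted p = 0.0044). It thus stayed near the T0 level in the cold while the 24°C libraries were higher. WOX4 was at 263, 241 and 268 against 330, 356 and 392, which do not overlap, and its difference of -0.48 (standard error 0.12) did not pass, with a limma adjusted p = 0.013.

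Of the genes without a name, Solyc05g014120 differed most at 30 min. It was at 97.6, 143 and 137 at 4°C and at 639, 753 and 596 at 24°C, a log2 difference of -2.40 (standard error 0.21, limma adjusted p = 1.48e-07). At T0 (replicates 4–6) it was at 161, 152 and 252, so that the 24°C libraries stood apart from the other groups. Solyc12g009880, the gene with the lowest shoot ratio at 3 h, was at 86.7, 79.6 and 75.7 at 4°C and 239.5, 241 and 282 at 24°C, a difference of -1.64 (standard error 0.19, limma adjusted p = 9.19e-06).

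Both genes called higher in the cold at 30 min were low at 3 h, as the rule requires of every gene in the set. MYB4 was at 292, 310 and 253 at 4°C and at 147, 147 and 155 at 24°C, and at 305, 278 and 245 at T0 (replicates 4–6). Its difference between temperatures was 0.92 (standard error 0.16, limma adjusted p = 0.000618), and it lay at the T0 level in the cold while the 24°C libraries were lower. With all T0 libraries as 1 group the limma adjusted p was 0.035. Solyc02g083250 was at 1336, 987 and 1559 at 4°C and at 915, 730 and 834 at 24°C, a difference of 0.63 (standard error 0.14, limma adjusted p = 0.0057). That limma call ended with only the 9 libraries of the 30 min batch (adjusted p = 0.035), with all T0 libraries as 1 group (0.015) and without 24°C replicate 2 (0.037), 24°C replicate 3 (0.019), 4°C replicate 1 (0.028) or 4°C replicate 3 (0.031). Against T0 replicates 4–6, Solyc02g083250 too lay near the T0 level in the cold, at 0.096 (standard error 0.14, limma adjusted p = 0.71). At 24°C its difference from T0 was -0.53 (standard error 0.14, limma adjusted p = 0.013), which did not pass.

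Most named genes gave no call at 30 min. The limma adjusted p was 0.047 for BRH1 and between 0.10 and 0.82 for the other 14 named genes, and log2 differences ran from -0.62 (standard error 0.24) for BAG5 to 0.47 (standard error 0.28) for the CCCH zinc finger gene. NF-YB3, at 0.159 of the 24°C level at 3 h, was at 320, 270 and 135 in the cold and 180, 219 and 222 at 24°C after 30 min. GATA17 was at 62.2, 25.001 and 56.1 against 42.7, 43.3 and 65.5. In both, the groups overlapped and the cold libraries were more spread than those at 24°C.

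The same 30 min libraries can be set against T0 replicates 4–6, a comparison that shares libraries with the one above. At 4°C, 9 of the 123 genes were lower than T0 (7.32%, against 5.17% of all genes) and 0 higher (1.93% of all genes), all by limma. Of the 14797 genes with the T0 minimum that met the rule in neither organ, 6.48% were lower and 1.59% higher. At an unadjusted p under 0.05 the counts among the 123 were 32 (against 17.3% of all genes tested) and 1 (against 10.8%). Without T0 replicate 6 the count lower at the adjusted threshold was 5, and with the 9 libraries of that batch alone it was 4. All 3 cold libraries lay below all 3 T0 libraries for 31 genes (25.2%, against 17% of all genes). The median log2 difference was -0.26, against -0.028 over all genes tested. At 24°C, 1 was lower (0.813%, against 4.52%) and 7 higher (5.69%, against 3.96%), and the median was 0.011 against 0.025. The higher count was 4 without 24°C replicate 2, 24°C replicate 3, T0 replicate 4 or T0 replicate 5. Side by side, GT2 had a log2 difference from T0 of -0.48 (standard error 0.12, limma adjusted p = 0.011) at 4°C and 0.36 (standard error 0.12, adjusted p = 0.046) at 24°C. MYB4 had 0.047 (standard error 0.16, limma adjusted p = 0.89) at 4°C and -0.87 (standard error 0.16, adjusted p = 0.000949) at 24°C. Solyc12g009880 had -1.05 (standard error 0.19, limma adjusted p = 0.0012) at 4°C and 0.60 (standard error 0.19, adjusted p = 0.041) at 24°C.

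The families of the named genes were counted in the study's list of transcription factors, of which 367 were measured in both organs. At 30 min limma called 37 of these lower and 65 higher at 4°C, where it called 3.22% and 2.85% of all genes tested. The median log2 difference of the 367 was 0.17. The list was drawn from genes that differed in these samples, so its counts and those of its families are a description. The list holds 1 WOX gene, which is WOX4, and 5 TCP genes, of which 1 is among the 123 and 1, another gene of the family, was called lower at 30 min. Of 8 GATA genes 2 are among the 123 and 0 were called at 30 min, with a median log2 difference of -0.15. NF-Y has 5 genes, HSF 11, NAC 14, CCCH zinc finger 7 and GRAS 20, and each has 1 among the 123. MYB and MYB-like genes, by the wording of their entries, number 57, with 4 among the 123 and with 5 called lower and 7 higher at 30 min. GT2, a trihelix factor, is counted here by its entry, both among the 4 and among the 5. The 53 ERF, 30 bHLH, 21 C2H2 zinc finger and 12 Dof genes have none among the 123, and the ERF genes had the highest median of these families at 30 min, 1.15, with 23 called higher and 3 lower. The 18 homeobox genes include WOX4, and 4 of them were called lower at 30 min, WOX4 not among them. Wall, hormone and transport families could be counted only in the study's list of 10°C responses described below: its 1 expansin is EXPA4, and its 7 xyloglucan endotransglucosylase/hydrolase, 2 auxin-response, 2 cyclin, 1 aquaporin and 10 cytochrome P450 genes have none among the 123.

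Another 6 of the study's common transcription factors were lower at 4°C in both organs and did not meet the rule, some narrowly and some by a wide margin in the T0 mean. ERF13 (Solyc01g090340) missed it with a shoot 4°C/24°C ratio of 0.507, at 0.424 of T0 in shoots and 0.436 in roots. A bHLH gene (Solyc02g062690) had ratios to T0 of 0.229 in shoots and 0.283 in roots but a root T0 mean of 42.5. HB-7 (Solyc03g082550), a homeobox gene of water stress, had ratios to 24°C of 0.127 in shoots and 0.0348 in roots, with T0 means of 9.64 and 17.8. A Dof gene (Solyc02g076850), NTT (Solyc03g059270) and a gene listed as DBTF (Solyc07g055100) likewise missed the T0 minimum in 1 organ. The members nearest to each limit were Solyc07g054760 for the shoot T0 mean (50.2, with Solyc07g055100 outside at 49.0), Solyc03g096780 for the shoot ratio to T0 (0.543, with Solyc07g008100 outside at 0.553) and MYB43 for the shoot ratio to 24°C (0.495, with Solyc02g089990 outside at 0.504). In roots they were Solyc02g063380 for the T0 mean (51.2, with Solyc03g006600 outside at 49.9), Solyc08g006080 for the ratio to T0 (0.549, with Solyc00g007150 outside at 0.552) and MYB4 for the ratio to 24°C (0.495, with Solyc03g097340 outside at 0.506). The root ratio to T0 alone kept out 133 genes, the most of any limit.

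Responses of tomato to a milder cold offer a readout that the rule did not use. The study tabulates genes that another group reported as changed, in either direction, after 3 h at 10°C. Of the 123 genes 32 are in that list (26.0%), and they make up 2.64% of its 1210 genes measured in both organs here. The share was 17.1% of the 357 genes that met the rule in shoots alone, 18.6% of the 86 in roots alone and 6.38% of all 18970 genes. GATA17, PYR1, BRH1, BAG5, PEX11A and EXPA4 are among the 32. PYR1, BRH1, BAG5, PEX11A and EXPA4 have their names from that list, and the direction of change at 10°C was not analysed here.

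The 123 genes were spread over all chromosomes. Between 6 and 18 lay on each of chromosomes 1 to 12, which is 0.448% to 0.982% of the measured genes of a chromosome. In the ID order of the genes listed for both organs, 3 pairs were immediate neighbours, and genes not listed for both may lie between them. One of these pairs held BAG5 and Solyc06g072410.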

How the data were processed

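Shoot and root libraries (18 and 9) were grouped by their labels. The signal values are TMM-normalised counts made by the authors: per the study's methods, reads were mapped with BBMap to the tomato genome (ITAG 3.2) with the plastid and mitochondrial genomes, counted with featureCounts and normalised with edgeR, shoots and roots apart, before they were deposited. They are not whole reads, and libraries of an organ sum to nearly the same total, so they keep no read depth and give no counting error. The study lists more genic reads for T0 replicates 1–3 and roots than for the other shoots. Replicates are biological by the labels. limma 3.58.1 in R 4.3.3 was run on log2(value + 1), for genes at 10 or more in at least 3 libraries, on all 18 shoot libraries with 6 groups, Benjamini-Hochberg adjusted over all genes tested, at an adjusted p under 0.01. The batch of roots was not given in the sources used here, and 0 columns were left out. Named genes are those with a name or transcription factor entry in the study's tables, plus at most 2 unnamed IDs per direction and comparison. The members and lists were chosen with earlier results of these data known. Alternatives covered the pseudocount, filters, scaling, moderation, T0 libraries, replicate block, thresholds and each library left out. Promoter motifs and lists by product name over all genes were not analysed here.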

Additional observations from a re-analysis of the deposited data

Results flagged for a closer look

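In Solyc12g009880, T0 replicate 6, at 238, stood apart from the other T0 shoot libraries, at 114 to 148: the gap to its nearest neighbour was 0.728 of the whole range, over the critical value of Dixon's test for 6 samples. Chance passes that value in about 1 of 20 groups, and 3 of the 123 genes (2.44%) did.

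At 30 min every 4°C library lay above every 24°C library for 4 of the 123 genes (3.25%, against 7.33% of all genes). In these 4 genes every 4°C library lay below every 24°C library at 3 h, which the rule largely fixes. The 4°C/24°C ratio at 30 min was 1.90 for MYB4 (Solyc06g065100), 1.57 for Solyc02g083250, 1.59 for Solyc11g005280 and 1.33 for Solyc10g080610. The difference between the times was not tested, and time and batch cannot be told apart here.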

How the results depend on the processing

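The rule found 81 genes with a T0 minimum of 100, 219 with a minimum of 10, and 109 to 142 with each library left out (lowest without root T0 replicate 3, highest without root 4°C replicate 3). At 30 min, 4°C against 24°C, leaving out each library gave 8 to 13 genes called, 7 to 12 lower and 1 to 2 higher, with a median of -0.38 to -0.25. For 4°C against T0 it gave 5 to 9 called, 5 to 9 of them lower, and for 24°C against T0 5 to 9 called, 4 to 8 higher and 1 lower, with a median of -0.048 to 0.091. With the 9 libraries of the 30 min batch alone, 1 gene was higher between temperatures, 4 were called against T0 at 4°C, 4 of them lower, and 5 against T0 at 24°C, 4 of them higher. With all T0 libraries as 1 group, 7 were called between temperatures and 0 of these higher (2 in limma with the T0 sets apart, 4 there at an unadjusted p under 0.05), and at 24°C against T0 2 were lower, with a median of -0.072. Rescaling over nuclear genes gave 2 lower at 24°C against T0 and a median of 0.0014. At an adjusted p under 0.05, 31 were called between temperatures (29 lower, 23.6% against 7.29% of all genes tested), 20 against T0 at 4°C (20 lower, 16.3% against 10%) and 15 against T0 at 24°C (12 higher, 9.76% against 8.6%, and 3 lower, 2.44% against 8.5%). Replicate numbers did not pair the samples (same-number correlations 0.00458, 0.125 and 0.0197), and with the replicate block, without T0 replicates 4 to 6, 16 genes were lower between temperatures. Of 308 values of single genes under alternatives 289 kept direction and side of the threshold, 12 no longer passed and 7 changed sign, all 7 in genes with no call and with 1 library left out, where the log2 difference ran from -0.39 to 0.25 for GATA17 (Solyc01g100220), -0.43 to 0.12 for PEX11A (Solyc04g080000), -0.080 to 0.55 for MYB43 (Solyc04g014470), -0.11 to 0.51 for NF-YB3 (Solyc12g006120) and -0.35 to 0.0025 for the TCP gene (Solyc08g080150). GT2, Solyc05g014120 and Solyc12g009880 passed in every one. The deposited values keep no read depth, so counting error was not weighed here.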
